A study of Mus musculus with 2 samples.

Results

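The genes described here are those by which a cell answers a shortage of amino acids or an overload of unfolded protein in the endoplasmic reticulum (ER). Their names were chosen as a list of 36 genes, and the members were the rows of the deposited gene table with these symbols, 36 of 23358 listed genes. The list was divided into 20 genes of the ATF4-type amino acid response and 16 genes of ER sensing, folding and degradation. Group E were BALB/c mice, 21 days old, that received 0.2 ml of castor oil by mouth and, after 0.5 h, 0.3 ml of EA at 10 mg/ml. EA is ellagic acid, a plant polyphenol. Group D were BALB/c mice of the same age that received the same dose of castor oil and, after the same delay, 0.3 ml of physiological saline. Mice of both groups also received 0.1 ml of saline into the peritoneum, and the treatments were repeated once a day for 3 days. All mice were thus given castor oil, which causes diarrhea, and RNA of mice without castor oil was not analysed here. Each group held 10 mice and 2 sequenced libraries of whole ileum, the final stretch of the small intestine. The sources used here do not say which mice gave the RNA of a library.

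The integrated stress response begins with kinases that phosphorylate the translation factor eIF2α. GCN2 (Eif2ak4) is activated by uncharged tRNA when amino acids are short, and PERK (Eif2ak3) by unfolded protein in the ER. Phosphorylated eIF2α slows most translation but favours that of ATF4, a transcription factor that switches on genes of amino acid synthesis and transport. The unfolded protein response uses PERK and a further pair of ER sensors. IRE1 splices the RNA of the transcription factor XBP1, and ATF6 is cut in the Golgi to release a transcription factor. XBP1 and ATF6 raise chaperones, disulfide isomerases and the machinery that sends misfolded protein to the proteasome. In the intestine, goblet and Paneth cells secrete large amounts of protein and depend on this response.

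The deposited table gives 1 FPKM value per gene and group. FPKM are fragments per kilobase of transcript, scaled to the mapped fragments, so levels of different genes can be compared per length. With 1 value per group there are no replicates, no SD and no test, and every difference is given as a description of the values listed. The difference of a gene is the log2 ratio of group E to group D in FPKM. Genes listed above 0 in both groups that averaged 1 FPKM or more numbered 12694, and their median difference was 0.01, with quartiles at -0.19 and 0.21. Depth is not listed with the values. Low FPKM multiplied by transcript length fell in steps, from which about 16800000 fragments stood behind the values of group E and about 22200000 behind those of group D. The paper lists far more clean reads than this for each library, and more for group E than for group D. Why the steps give fewer was not resolved, so the fragments may be too few and their order between the groups wrong. Of low values of about 1 to 4 steps, 81.9% of 227 in group E and 76.6% of 218 in group D were whole multiples within 0.15 of a step. Smaller values were left out, so these shares cannot show that a step is 1 fragment. From these approximate fragments, 119 to 24094 per value for the members that passed, a 95% interval (exact Clopper-Pearson) was computed for each difference, which covers counting error only and not differences between mice. The FPKM of all genes summed to 589890 in group E and 459683 in group D, and Snord99, a small nucleolar RNA, was listed at 90355 FPKM in group E and at 0 in group D. Scaling both groups to equal sums lowers every difference by 0.36 on the log2 scale and brings the median of all genes to -0.35. With Snord99 left out of the sums, every difference is lowered by 0.12. Differences below are on the deposited scale unless equal sums are named. The β-actin gene Actb had 4745 FPKM in group E and 4630 FPKM in group D. Gapdh, a glycolysis gene of every cell, was listed at 2.98 FPKM in group E and 0.120 FPKM in group D, so a listed value near 0 may stand for an estimate that failed. The marker Adipoq of fat cells carries the same value in group D to every digit listed, and fat cell genes are listed on both sides, as given with the markers below. The gene name or the direction of some rows of the table may therefore be wrong, and each difference below is read as listed.

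The promoters of several members hold the letters of known response elements, and they are shown so that the members with an element can be set beside those without one. RefSeq promoters of GRCm38.p6, from 250 bases before to 50 bases after the start, were found for 32 of the 36 genes, and 10 of these held an element. The sources used here do not name the build of the table, but 31 of these 32 promoters overlapped the position the table lists for the gene, with Herpud1 as the exception. The ER stress element (ERSE), searched on both strands as CCAAT and CCACG with 9 bases of any kind between them, is bound by NF-Y and by ATF6 or XBP1. It was present in 37 of 27025 genes with a promoter (0.137%), and among the members in 5 of 13 ER genes and 0 of 19 ATF4-type genes. The whole promoters of Creld2 (chr15:88819396-88819695, plus strand) and Calr (chr8:84846882-84847181, minus strand) follow, with the element in capitals. Both carry it on the opposite strand, where it reads CGTGG, 9 bases and ATTGG.
Creld2: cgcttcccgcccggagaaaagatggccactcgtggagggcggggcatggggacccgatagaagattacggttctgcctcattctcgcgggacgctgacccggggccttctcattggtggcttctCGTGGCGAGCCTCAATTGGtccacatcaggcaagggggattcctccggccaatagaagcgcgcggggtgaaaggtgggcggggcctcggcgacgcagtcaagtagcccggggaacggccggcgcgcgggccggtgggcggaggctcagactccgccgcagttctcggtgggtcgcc
Calr: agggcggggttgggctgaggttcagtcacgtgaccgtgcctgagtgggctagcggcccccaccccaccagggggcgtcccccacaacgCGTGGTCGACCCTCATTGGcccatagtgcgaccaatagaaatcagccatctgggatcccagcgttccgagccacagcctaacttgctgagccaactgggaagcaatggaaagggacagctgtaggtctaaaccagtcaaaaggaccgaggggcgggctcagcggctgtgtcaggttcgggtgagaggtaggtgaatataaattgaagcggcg

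In the other ERSE promoters the element lay on the strand of the gene. It began 98 bases before the start of Pdia6 (chr12:17266470-17266529, plus strand), 145 bases before that of Canx (chr11:50325780-50325839, minus strand) and 44 bases before that of Syvn1 (chr19:6046511-6046570, plus strand). Stretches of 60 bases around each element are shown with the ERSE in capitals.
Pdia6: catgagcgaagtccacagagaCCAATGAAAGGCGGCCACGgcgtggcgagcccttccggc
Canx: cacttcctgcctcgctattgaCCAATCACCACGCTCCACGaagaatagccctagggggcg
Syvn1: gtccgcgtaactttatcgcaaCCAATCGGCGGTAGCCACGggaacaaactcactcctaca

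The element ERSE-II, searched on both strands as ATTGG and CCACG with 1 base between them, was present in 12 of 27025 genes (0.0444%), Herpud1 among them. The C/EBP-ATF response element (CARE) is the site through which ATF4 and its partners act on genes of the amino acid response, and it was searched as TGATGNAA on either strand. It was present in 1219 of 27025 genes (4.51%), and among the members in 4 of 19 ATF4-type genes (Asns, Chac1, Trib3 and Fgf21) and in Herpud1. A further ER motif, TGACGTG on either strand, was present in 601 genes (2.22%) and in no member. Herpud1 is the only member with both an ER element and a CARE, and 91 bases of its promoter (chr8:94386307-94386397, plus strand) are shown with the CARE (first) and the ERSE-II (second) in capitals.
Herpud1: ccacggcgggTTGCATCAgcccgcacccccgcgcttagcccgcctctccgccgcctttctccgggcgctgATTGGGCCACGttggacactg

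Asns (chr6:7693160-7693459, minus strand) and Chac1 (chr2:119350992-119351291, plus strand) show the CARE of the amino acid response in whole promoters, 23 and 193 bases before the start. In Chac1, and in Trib3, where it lay just behind the start (chr2:152344013-152344072, minus strand), it is on the opposite strand, as TTNCATCA. The CARE is in capitals.
Asns: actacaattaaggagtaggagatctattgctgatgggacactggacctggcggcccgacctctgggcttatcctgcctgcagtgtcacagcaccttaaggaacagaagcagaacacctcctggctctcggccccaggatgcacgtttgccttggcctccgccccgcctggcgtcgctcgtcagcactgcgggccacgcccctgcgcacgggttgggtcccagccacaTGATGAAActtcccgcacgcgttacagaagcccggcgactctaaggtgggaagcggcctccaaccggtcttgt
Chac1: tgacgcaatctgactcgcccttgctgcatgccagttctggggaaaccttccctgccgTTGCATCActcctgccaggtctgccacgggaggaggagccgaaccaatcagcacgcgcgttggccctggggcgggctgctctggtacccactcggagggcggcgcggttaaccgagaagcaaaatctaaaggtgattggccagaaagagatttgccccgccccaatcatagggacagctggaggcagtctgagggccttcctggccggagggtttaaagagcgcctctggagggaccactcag
Trib3: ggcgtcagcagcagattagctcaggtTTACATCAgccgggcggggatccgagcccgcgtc

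A match of letters is a description and does not show that a factor was bound. The positions of these elements are drawn by distance from the start.

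**Figure D1:**
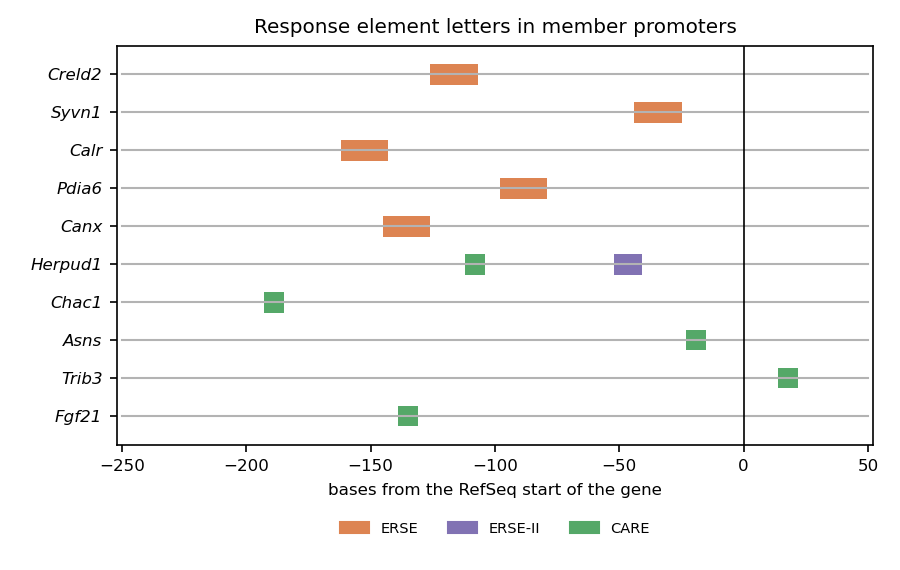
Positions of response element letters (ERSE, ERSE-II and CARE, coloured boxes) in the promoters of 10 member genes, in bases from the RefSeq start of the gene (vertical line at 0), from 250 bases before to 50 bases after it. The ERSE letters lie 44 to 162 bases before the start in 5 ER genes, and the CARE letters 193 bases before to 15 bases after it in 5 genes.

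Of the 36 genes, 35 passed the filter on low values, and none was past a 2-fold difference in either direction, where 2.9% of the 12694 genes were (1.59% higher and 1.31% lower in group E). Past 1.5-fold, 2 members were higher in group E, Ddit3 and Creld2, against 5.03% of all genes, and 0 were lower, against 5.19% (10.2% in either direction). Of the 35, 23 were listed higher and 12 lower in group E, with a median difference of 0.09. Of the 12694 genes, 51.2% were listed higher in group E. At equal sums of FPKM 15 of the 35 change sign, and the count with Snord99 left out of the sums was not taken. The remaining gene, Fgf21, a hormone that is a target of ATF4 in liver, was listed at 0 in both groups. The plot of all levels shows that the values of the groups lie close together for most genes.

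**Figure D2:**
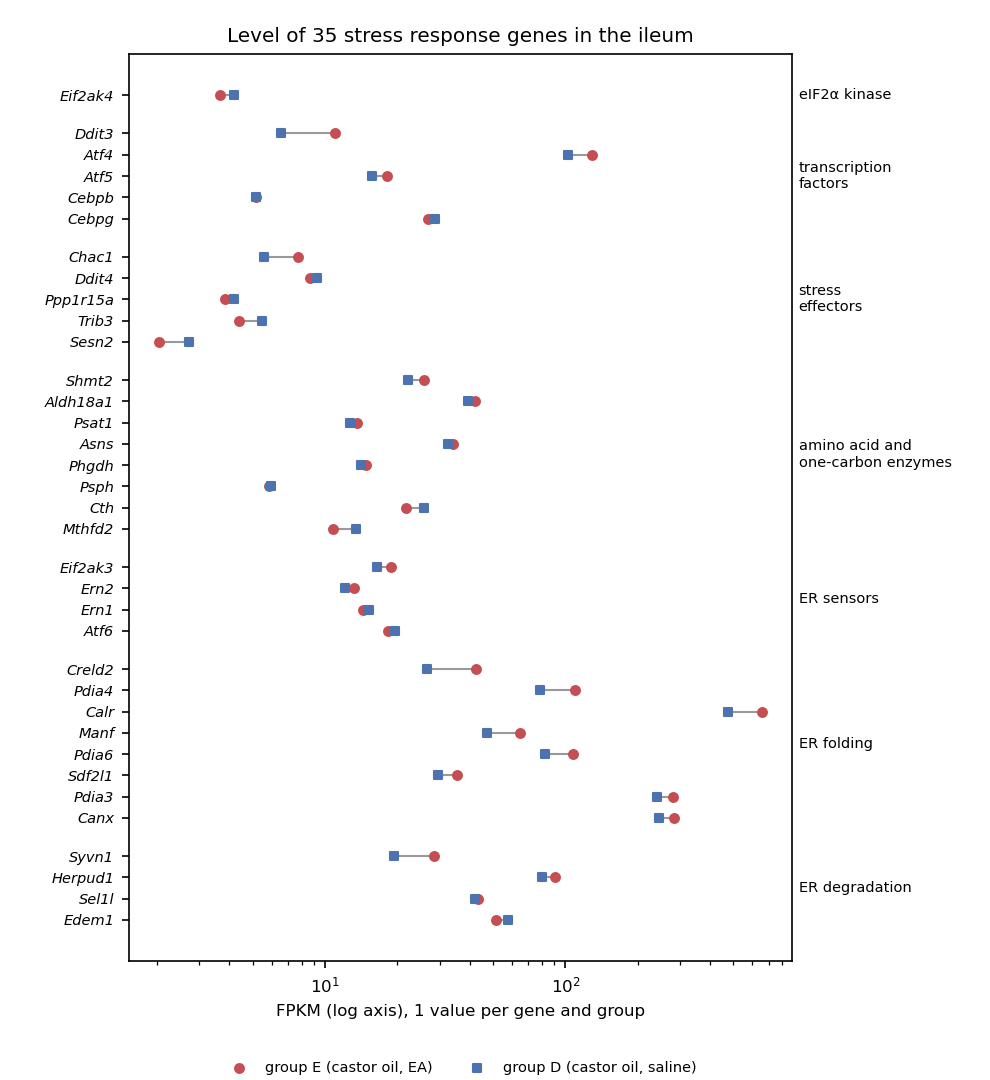
FPKM of the 35 members above 0 in group E (red circles) and group D (blue squares) on a log axis, with 1 value per gene and group and no error bars, ordered by role. Values run up to 657 FPKM for Calr in group E, and no pair of values is 2-fold apart.

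Among the regulators of the amino acid response, the transcription factors Atf4 and Ddit3 were listed higher in group E. The eIF2α kinases upstream of ATF4 were listed on either side, with PERK given below among the ER sensors. Eif2ak4 (GCN2) was listed at 3.64 FPKM in group E and 4.17 FPKM in group D, a difference of -0.20 whose interval holds 0 (-0.40 to 0.01). Atf4 itself, on chromosome 15 from 80255184 to 80257541, was listed at 129.5 FPKM in group E and 102.2 FPKM in group D. This is a fold of 1.27 and a difference of 0.34 (95% counting interval 0.28 to 0.41), which becomes -0.02 at equal sums. Atf4 had the highest FPKM of the 20 genes, but its activity is set mainly by translation, which RNA levels do not measure. Ddit3 (CHOP), a transcription factor tied to cell death under lasting ER stress, had 11.0 FPKM in group E and 6.57 FPKM in group D. Its fold of 1.67 and difference of 0.74 (0.40 to 1.09) were the largest of all members, and 2.81% of all genes had a larger difference. It stayed above 0 at equal sums, at 0.38. The row of Ddit3 spans 127290793 to 127311786 on chromosome 10 and overlaps that of Mars, the methionyl-tRNA synthetase, which was listed at 20.9 FPKM in group E and 20.7 FPKM in group D, so the share of reads between the neighbours is uncertain.

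The remaining transcription factors differed less. Atf5, which is also raised through phosphorylated eIF2α, was at 18.2 FPKM in group E and 15.6 FPKM in group D, a difference of 0.22. Its row overlaps those of Il4i1, Tbc1d17 and Nup62. Cebpb, a partner of ATF4 at CARE sites, was at 5.16 FPKM in group E and 5.15 FPKM in group D. Cebpg, another such partner, was at 27.0 FPKM in group E and 28.8 FPKM in group D. Of these 5 factors 4 were listed higher in group E, with a median of 0.22, and the counting interval lay above 0 for 3 of them (Atf4, Atf5 and Ddit3). At equal sums only Ddit3 stayed above 0.

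The stress effectors and feedback genes below ATF4 and CHOP did not share a direction. Chac1, which degrades glutathione, was listed at 7.75 FPKM in group E and 5.56 FPKM in group D, a fold of 1.39 and a difference of 0.48 (0.20 to 0.76), or 0.12 at equal sums. Sesn2 (sestrin 2), a leucine sensor that restrains mTORC1, was at 2.04 FPKM in group E and 2.72 FPKM in group D. Its difference of -0.42 (-0.75 to -0.08) was the lowest of all members, and 90.1% of all genes had a larger one. Trib3, a pseudokinase that feeds back on ATF4, was at 4.39 FPKM in group E and 5.45 FPKM in group D, a difference of -0.31 (-0.62 to -0.01). Chac1 and Trib3 both hold a CARE in the promoters printed above and were listed on opposite sides. Ddit4 (REDD1), another brake on mTORC1, was at 8.69 FPKM in group E and 9.30 FPKM in group D. Ppp1r15a (GADD34), which returns eIF2α to its unphosphorylated state, was at 3.83 FPKM in group E and 4.17 FPKM in group D. Of the 5 effectors above 0, 1 was higher and 4 were lower in group E, with a median of -0.12.

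Among the enzymes that make amino acids or feed the folate cycle, those for asparagine, serine and proline differed little, whereas Shmt2, Mthfd2 and Cth lay outside the quartiles of all genes. Asns (asparagine synthetase), a standard target of ATF4, was listed at 34.1 FPKM in group E and 32.4 FPKM in group D, a difference of 0.08 (-0.04 to 0.19). The serine pathway was nearly flat. Phgdh, its first enzyme, was at 14.9 FPKM in group E and 14.1 FPKM in group D. Psat1, the aminotransferase after it, was at 13.6 FPKM in group E and 12.7 FPKM in group D. Psph, the phosphatase that releases serine, was at 5.85 FPKM in group E and 5.97 FPKM in group D. The intervals of all 3 serine genes and of Asns hold 0.

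The mitochondrial folate enzymes, which act on serine and glycine, were listed on opposite sides. Shmt2, which turns serine into glycine, was at 25.9 FPKM in group E and 22.2 FPKM in group D, a difference of 0.22 (0.10 to 0.35). Its row overlaps that of Ndufa4l2, listed at 1.23 FPKM in group E and 0.217 FPKM in group D. Mthfd2, which oxidises the folate carried carbon unit, was at 10.8 FPKM in group E and 13.5 FPKM in group D, a difference of -0.32 (-0.51 to -0.13). Aldh18a1, the first enzyme of proline synthesis from glutamate, was at 42.2 FPKM in group E and 39.6 FPKM in group D, a difference of 0.09. Cth (cystathionine γ-lyase), which makes cysteine, was at 21.7 FPKM in group E and 25.7 FPKM in group D, a difference of -0.24 (-0.39 to -0.10). Of the 8 enzymes 5 were higher and 3 lower in group E, with a median of 0.07, and all 8 were below 0 at equal sums.

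The ER sensors differed little between the groups. Eif2ak3 (PERK) was listed at 18.8 FPKM in group E and 16.4 FPKM in group D, a difference of 0.20 (0.09 to 0.30). Ern2 (IRE1β), the IRE1 form of mucus-secreting epithelium, was at 13.2 FPKM in group E and 12.2 FPKM in group D. Ern1 (IRE1α), the form of all cells, was at 14.4 FPKM in group E and 15.2 FPKM in group D. Atf6 was at 18.3 FPKM in group E and 19.6 FPKM in group D, a difference of -0.10 (-0.18 to -0.02). The 4 sensors lay at similar FPKM, and their median difference was 0.02, with 2 listed higher and 2 lower in group E. Sensors act through splicing, cleavage and phosphorylation, none of which is measured by FPKM per gene.

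All 8 folding genes of the ER were listed higher in group E, where 51.2% of all genes were, and each counting interval lay above 0. At equal sums 5 of the 8 stayed above 0, and with Snord99 left out of the sums all 8 did. Their FPKM summed to 1579 in group E and 1223 in group D, and their median difference was 0.42. Intervals were computed for members only, so no share of all genes can be set beside these 8 intervals. At such levels the intervals are narrow and exclude 0 at small differences. Creld2, an ER protein with disulfide isomerase activity that is released under ER stress, lies on chromosome 15 from 88819646 to 88826681 and was listed at 42.4 FPKM in group E and 26.7 FPKM in group D. Its fold was 1.59 and its difference 0.67 (0.53 to 0.80), with 3.73% of all genes above it. Calr (calreticulin), a calcium-binding chaperone of glycoproteins, was listed at 657 FPKM in group E and 473 FPKM in group D, a difference of 0.47 (0.45 to 0.50). It was the member with the highest FPKM, and 0.772% of all genes had a higher mean. Its membrane-bound relative Canx (calnexin) was at 282 FPKM in group E and 246 FPKM in group D, a difference of 0.20 (0.17 to 0.23). Canx was the lowest of the 8.

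The disulfide isomerases and the smaller folding factors lay between these. Pdia4 was at 109.2 FPKM in group E and 78.5 FPKM in group D, a difference of 0.48, and its row overlaps that of the microRNA gene Mir704. Pdia6 was at 107.5 FPKM in group E and 82.5 FPKM in group D, a difference of 0.38. Its row overlaps that of Atp6v1c2, listed at 0 in both groups. Pdia3, the isomerase that works with calreticulin and calnexin, was at 281 FPKM in group E and 240.1 FPKM in group D, a difference of 0.23. Manf, a secreted factor that binds the chaperone BiP, was at 64.8 FPKM in group E and 47.2 FPKM in group D, a difference of 0.46. Sdf2l1, a cofactor of BiP, was at 35.5 FPKM in group E and 29.7 FPKM in group D, a difference of 0.26. At equal sums Creld2, Pdia4, Calr, Manf and Pdia6 stayed above 0, at 0.31, 0.12, 0.11, 0.10 and 0.02, and Sdf2l1, Pdia3 and Canx did not. With Snord99 left out of the sums, each difference is lower by 0.12, and all 8 folding genes stay above 0.

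Genes of ER-associated degradation were less uniform. Syvn1 (HRD1), the ubiquitin ligase of this pathway, was listed at 28.4 FPKM in group E and 19.4 FPKM in group D, a fold of 1.47 and a difference of 0.55 (0.45 to 0.66), or 0.19 at equal sums. Its row overlaps that of Mrpl49, a mitochondrial ribosomal protein gene listed at 28.0 FPKM in group E and 20.3 FPKM in group D, so the origin of the reads is uncertain. Sel1l, the partner that holds HRD1 in place, was at 43.4 FPKM in group E and 42.2 FPKM in group D, a difference of 0.04 (-0.02 to 0.10). The ligase and its partner were thus not listed with like differences. Herpud1, which recruits the ligase complex, was at 90.9 FPKM in group E and 79.9 FPKM in group D, a difference of 0.19. Edem1, which trims mannose from misfolded glycoproteins, was at 51.6 FPKM in group E and 57.7 FPKM in group D, a difference of -0.16 (-0.21 to -0.11). The median of the 4 genes was 0.11.

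**Figure D3:**
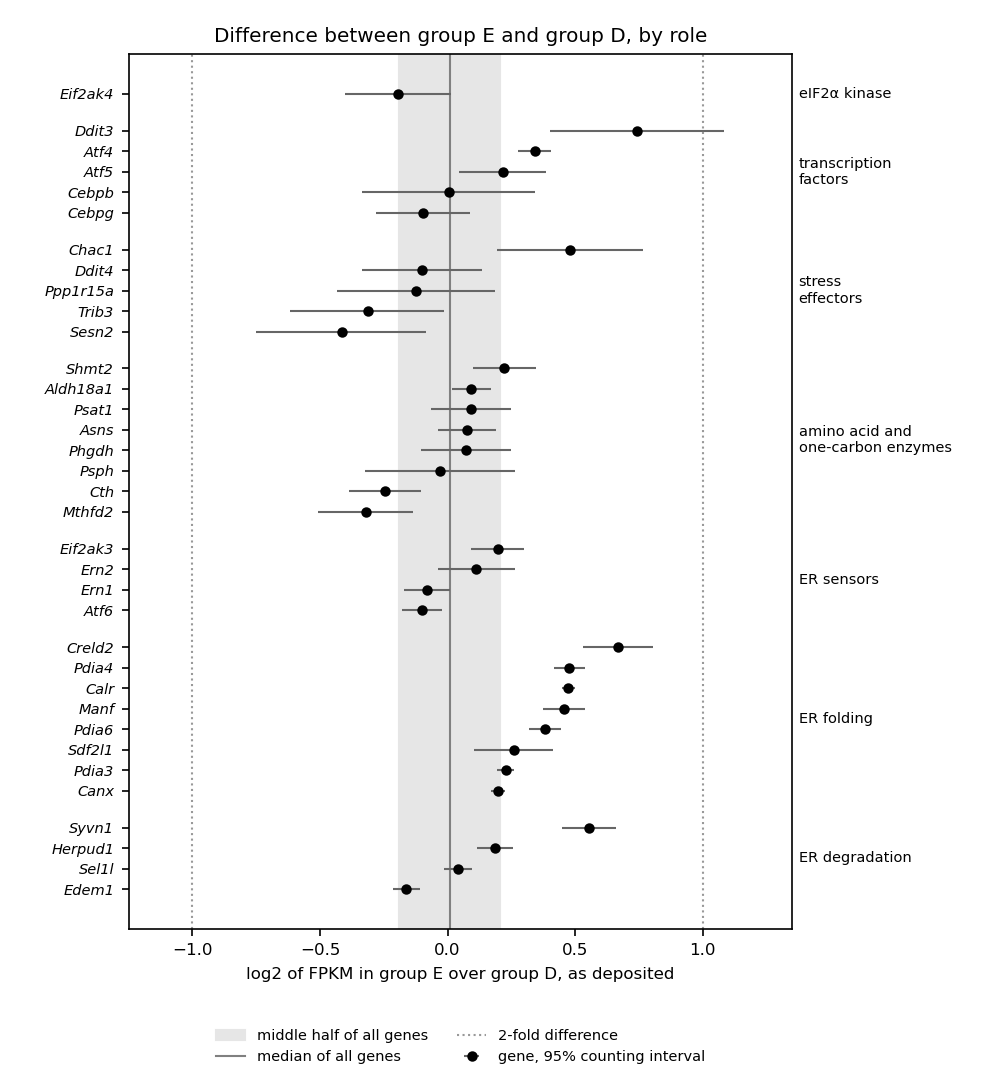
Difference of each of 35 members, as the log2 ratio of group E to group D in deposited FPKM (points) with a 95% interval for counting error only (bars), beside the median and the quartiles of 12694 genes (line and grey band) and the 2-fold marks (dotted). All 8 folding genes lie right of 0 and the other roles lie on both sides or near it, and at equal sums of FPKM every point moves left by 0.36, which leaves 5 of the 8 above 0.

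The ATF4-type genes and the ER genes differed in their medians. The 19 ATF4-type genes above 0 FPKM had a median difference of 0.01, the same as all genes, with 10 listed higher and 9 lower in group E and a range from -0.42 to 0.74. The 16 ER genes had a median of 0.21, with 13 higher and 3 lower and a range from -0.16 to 0.67. Of all genes, 51.2% were listed higher in group E, near the share of the ATF4-type genes. The ATF4-type median minus the ER median was -0.21, a value that no scaling of the groups alters, since scaling moves every gene alike. At equal sums the ER median was -0.15 and the ATF4-type median -0.35, and the ER median was above that of all genes on both scales. The ER median stayed above 0 under the other scalings tried, at 0.20 centred on the median gene, 0.18 relative to Actb, 0.15 with upper-quartile scaling and 0.093 at equal sums without Snord99. Counting intervals lay above 0 for 11 ER genes and below 0 for 2 (Atf6 and Edem1). Among the ATF4-type genes they lay above 0 for 6 and below 0 for 4, and held 0 for 9. Intervals were computed for members only, so the share of all genes is not known. Most ER genes have more fragments and thus narrower intervals, so these counts depend on level. The interval of Atf6 at -0.10 excludes 0, and that of Eif2ak4 at -0.20 does not. Without sensors and transcription factors the ER median was 0.32 and the gap between the medians -0.35, in the same direction.

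The lists also differed in level. All 16 ER genes had a mean above 10.4 FPKM, the median of all genes that passed, as did 10 of the 19 ATF4-type genes. The median FPKM of the ER genes was 47.5 in group E and 44.7 in group D, and that of the ATF4-type genes 11.0 in group E and 12.7 in group D. On the deposited scale, genes of high FPKM were listed slightly higher in group E in general. Over 3801 genes with a mean of at least 20 FPKM the median difference was 0.05, with quartiles at -0.12 and 0.23, and 57.4% were higher in group E. The 12 ER genes past that level had a median of 0.32. The 6 ATF4-type genes past it had a median of 0.08, and the gap between the medians was -0.24. Past 1.2-fold, a threshold chosen after seeing the data, 6 of 16 ER genes were higher and 0 lower in group E, 5 of them folding genes and the other Syvn1. Of the 19 ATF4-type genes 3 were higher (Ddit3, Chac1 and Atf4) and 3 lower (Sesn2, Trib3 and Mthfd2). Of all genes, 19.9% were higher and 18.7% lower past this threshold (38.6% together).

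**Figure D4:**
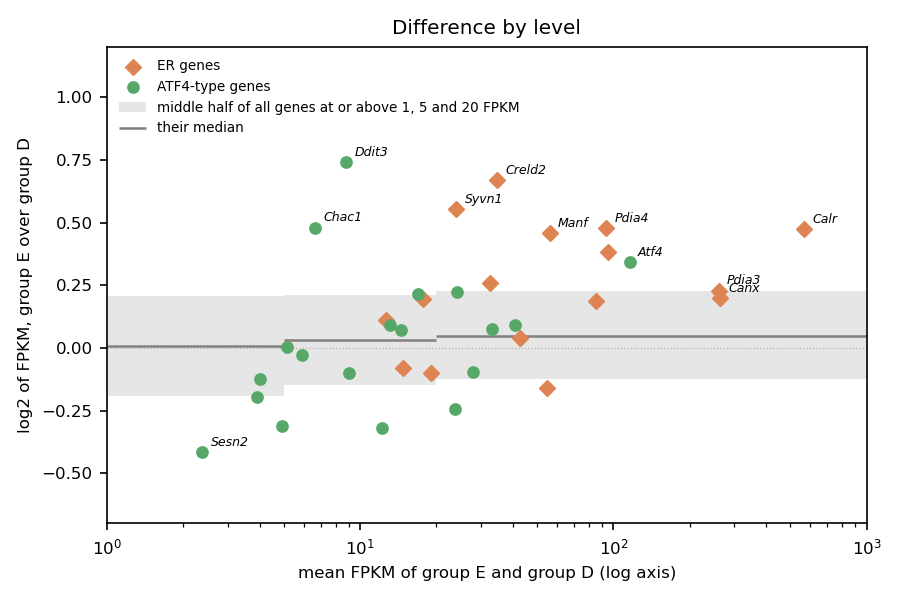
Difference (log2 ratio of group E to group D in deposited FPKM) against the mean FPKM of both groups on a log axis, for 16 ER genes (diamonds) and 19 ATF4-type genes (circles), with the quartiles and median of all genes at or above 1, 5 and 20 FPKM (grey bands and lines). ER genes sit at higher FPKM and mostly above the lines, ATF4-type genes on both sides, and at equal sums of FPKM the genes and the lines all move down by 0.36.

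The response elements shown above were set beside these differences. The 5 ER genes with an ERSE (Creld2, Syvn1, Calr, Pdia6 and Canx) were all listed higher in group E, with a median of 0.47 and a range from 0.20 to 0.67. The 8 ER genes with a promoter but without the ERSE had a median of 0.19, with 6 higher and 2 lower. These sets also differ in role, since those with an ERSE were folding genes and Syvn1, and those without include sensors and degradation genes. The folding genes without an ERSE were Pdia3, Sdf2l1 and Pdia4, at 0.23, 0.26 and 0.48, within the range of those with it. Of the 32 genes with the ERSE that are no members, 10 passed the filter, 6 higher and 4 lower in group E, with a median of 0.23. They are not a set apart from the pathway, since the highest, Hspa5 at 0.62, and the lowest, Derl3 at -0.27, are both on the list of further ER genes described below. Genes with the other ER elements stood nearer to the median of all genes. Of the non-members with an ERSE-II 7 passed, 5 higher and 2 lower, with a median of 0.07, and the 315 genes with the further ER motif that passed had a median of 0.03. Genes with a CARE stood near the median of all genes as well. Of 1214 that are no members, 262 passed, with a median of -0.04, and the 3 ATF4-type genes with a CARE that passed were Chac1, Asns and Trib3. At equal sums each of these medians is lower by 0.36.

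Other genes of the same pathways, from lists drawn up with earlier results of these data known, were set beside the members. Of 39 further genes of the integrated stress response 35 passed the filter, 0 of them past 2-fold, with 22 higher and 13 lower in group E and a median of 0.11. Upstream of ATF4, the eIF2 kinases, eIF2, eIF2B and the eIF2α phosphatase subunit Ppp1r15b had a median of 0.28, with 8 of 11 higher. All 5 subunits of eIF2B, the exchange factor that phosphorylated eIF2α blocks, were listed higher in group E on the deposited scale, with differences from 0.28 (Eif2b1 and Eif2b2) to 0.65 (Eif2b4). Eif2b4 was at 15.0 FPKM in group E and 9.57 FPKM in group D. At equal sums Eif2b4 and Eif2b3 would stay above 0 and the other 3 subunits would not. Ppp1r15b, the constitutive partner of the eIF2α phosphatase, was at 79.8 FPKM in group E and 85.6 FPKM in group D.

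Amino acid transporters and further partners and targets of ATF4 had medians near that of all genes, with single genes well to either side. The 8 transporters above the filter had a median of 0.01, with 4 higher and 4 lower, the 9 partners and targets a median of 0.08, and the 7 further amino acid and folate enzymes a median of 0.16. Slc3a2, the heavy chain shared by several transporters, was at 73.2 FPKM in group E and 67.4 FPKM in group D. Slc38a2, which takes up neutral amino acids, was at 47.1 FPKM in group E and 49.3 FPKM in group D. Slc1a5, a glutamine transporter, was at 44.7 FPKM in group E and 34.1 FPKM in group D, a difference of 0.39. Nupr1, a stress-induced regulator, was at 73.3 FPKM in group E and 65.4 FPKM in group D, and Sqstm1, an autophagy receptor, at 97.1 FPKM in group E and 89.0 FPKM in group D. The genes furthest out were named after their values were seen. The transaminase Gpt2 was at 6.72 FPKM in group E and 3.70 FPKM in group D, and the cystine transporter Slc7a11 at 1.319 FPKM in group E and 2.205 FPKM in group D.

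Among 56 further genes of the unfolded protein response and the ER, all of which passed, 36 were listed higher and 20 lower in group E, with a median of 0.12, or -0.24 at equal sums. The 17 chaperones and oxidoreductases had a median of 0.15, with 13 higher. Hspa5 (BiP), the main chaperone of the ER, was at 511 FPKM in group E and 333 FPKM in group D, a difference of 0.62. Hsp90b1 (GRP94) was at 456 FPKM in group E and 360.2 FPKM in group D, a difference of 0.34. P4hb, the classical disulfide isomerase, was at 553 FPKM in group E and 532 FPKM in group D, a difference of 0.06. The cyclophilin Ppib was at 196 FPKM in group E and 177 FPKM in group D.

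The transcription factors of this response lay on both sides. Xbp1 was at 94.9 FPKM in group E and 101.2 FPKM in group D, a difference of -0.09, and FPKM per gene do not separate its spliced form. Creb3l3, a liver and intestine factor of the same kind as ATF6, was at 184 FPKM in group E and 187 FPKM in group D. The related Creb3l2 was at 10.4 FPKM in group E and 7.15 FPKM in group D, a difference of 0.54. Past 2-fold were only Creb3l1, another such factor, at 19.2 FPKM in group E and 9.03 FPKM in group D, and Dad1. Dad1, a subunit of the oligosaccharyltransferase, was at 209 FPKM in group E and 63.3 FPKM in group D, a difference of 1.72. Other subunits of that enzyme had smaller differences, among them Rpn1 at 0.32 and Stt3b at -0.01. The 17 degradation genes outside the member list had a median of 0.03, with 9 higher and 8 lower.

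**Figure D5:**
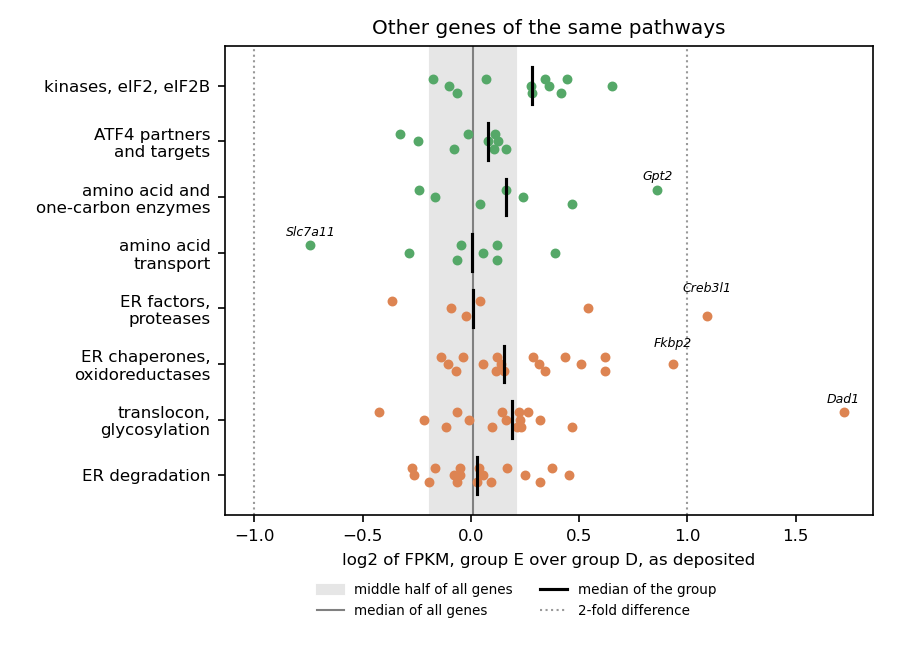
Difference (log2 ratio of group E to group D in deposited FPKM) of 35 further genes of the integrated stress response (green) and 56 of the unfolded protein response and the ER (orange) in 8 roles, with the median of each role (black bar), the median and quartiles of all genes (line and grey band) and the 2-fold marks (dotted). The roles' medians run from 0.01 to 0.28 and only Creb3l1 and Dad1 lie past 2-fold, and at equal sums of FPKM every point moves left by 0.36 and every role's median lies below 0.

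Markers of the cells of the ileum were checked beside these genes, since fewer cells of a type and less RNA per cell cannot be told apart in whole tissue. Enterocyte markers were high in both groups, with 10 genes summing to 12659 FPKM in group E and 15082 FPKM in group D, a median difference of -0.03 and 4 of 10 higher. Lct (lactase), the marker past 2-fold, was at 18.4 FPKM in group E and 3.59 FPKM in group D. Fabp6, the bile acid carrier typical of ileum, was at 3846 FPKM in group E and 5698 FPKM in group D. The 7 goblet cell markers summed to 8324 FPKM in group E and 8208 FPKM in group D, with a median difference of 0.13 and 5 of 7 higher. The 6 Paneth cell markers summed to 10937 FPKM in group E and 11144 FPKM in group D, with a median of 0.29 and 4 of 6 higher. At equal sums the goblet and Paneth cell medians fall below 0, at -0.23 and -0.07. The goblet cell gene Agr2, itself a disulfide isomerase of the ER, was at 649 FPKM in group E and 460.4 FPKM in group D. Its difference of 0.50 was the largest of the 7 goblet cell markers. The lowest was that of Tff3, at -0.45, with 1442 FPKM in group E and 1977 FPKM in group D. The part of secretory cells in the values of the folding genes was not tested.

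Other cells that secrete much protein, or that could be carried along with the ileum, were checked in the same way. The 7 plasma cell markers summed to 518 FPKM in group E and 557 FPKM in group D, with 2 of 7 higher in group E and a median of -0.27. The 9 markers of pancreatic acinar cells summed to 1.95 FPKM in group E and 1.79 FPKM in group D, and 6 of them were listed at 0 in group E and 5 in group D, the defining markers Prss2 and Pnlip among them in both. The 6 hepatocyte markers summed to 2.13 FPKM in group E and 4.75 FPKM in group D, and Alb was at 0 in group E. The 6 smooth muscle markers summed to 820.2 FPKM in group E and 737 FPKM in group D, with 5 of 6 higher and a median of 0.31, or -0.05 at equal sums.

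Fat cell markers differed between the groups far more than any member. All 6 were listed higher in group E, with a sum of 493 FPKM in group E and 63.5 FPKM in group D. Cfd was at 274 FPKM in group E and at 0 in group D, and Adipoq at 63.4 FPKM in group E and 0.120 FPKM in group D. Genes of fat cells outside this list, named after their values were seen, were listed on the other side, with Fabp4 at 25.6 FPKM in group E and 536 FPKM in group D, and Lpl at 1.52 FPKM in group E and 41.8 FPKM in group D. No value of a member recurs in another row. The part of fat tissue in the values of the members was not tested.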

How the data were processed

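RNA of whole ileum was sequenced from group E and group D (2 libraries each, Illumina HiSeq 2500, paired ends). The labels list the molecule as genomic DNA, whereas their protocol and the methods describe RNA, and the values were treated as RNA. Per the labels and the methods, reads were aligned with TopHat2 2.0.12 on an index made with Bowtie2 2.2.3, and DESeq 1.18.0 was named for the comparison. The sources used here do not name the genome build. The authors deposited 1 FPKM value per gene and group, and how the 2 libraries were joined or scaled is not given. The table also holds the authors' fold change, P-value, q-value and DEG call, and a further table their KEGG enrichment, none of which were used.

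The difference of a gene was the log2 ratio of group E to group D in FPKM, without a pseudocount, for genes listed above 0 in both groups that averaged 1 FPKM or more. No test was possible with 1 value per group. Fragments were approximated from the steps of low FPKM and from transcript lengths of GENCODE M21 (the shortest principal coding transcript of at least 500 bases), so the intervals are approximate. Starts in the table count from 0, and 1 was added. The members, gene lists and marker lists were chosen with earlier results of these data known. The text names every member, genes of the other pathway lists past 2-fold and otherwise those highest in FPKM (at most 6 a list), and at most 4 markers a list. The eIF2B subunits, Gpt2, Slc7a11, Xbp1, Creb3l2, Creb3l3, Derl3, Lct, Prss2, Pnlip, Alb, Rpn1, Stt3b, Agr2, Tff3, Snord99, Fabp4, Lpl and genes that overlap a member were named after their values were seen. Alternatives were other fold thresholds, minimum FPKM, pseudocounts, scalings between the groups, the mean of a list and subsets of the members. The scripts were tested on simulated data. The scripts used scipy 1.17.1, pandas 2.3.3, numpy 2.4.6 and matplotlib 3.10.9 in Python 3.11.15.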

Additional observations from a re-analysis of the deposited data

How the results depend on the processing

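Scaling both groups to equal sums of FPKM moved the median of the ATF4-type genes to -0.35, that of the ER genes to -0.15, those of the other integrated stress response genes and of the other ER genes to -0.25 and -0.24, and those of the goblet cell, Paneth cell, acinar cell and smooth muscle markers to -0.23, -0.068, -0.050 and -0.046. With Snord99 left out of the sums, as chosen after seeing the data, the ATF4-type median was -0.11 and the ER median 0.093. Equal sums changed the sign of 15 of 35 members, upper-quartile scaling of 2, centring on the median gene and scaling to Actb of 1 each, and the pseudocounts and minimum FPKM of 0. Marker medians with few genes or values near 0 moved more with other settings, the fat cell median of 4.80 to 2.63 with a pseudocount of 1 and 4.01 with 0.1, and the hepatocyte median of -0.88 to -1.32 with no minimum. Marker lists of high FPKM moved when the mean of the list replaced the median. The Paneth cell value went from 0.29 to 0.13, that of smooth muscle from 0.31 to 0.17 and that of enterocytes from -0.03 to 0.13. The ER median was 0.32 without sensors and transcription factors and 0.32 at a mean of at least 20 FPKM, and the gap between the medians was -0.35 without sensors and transcription factors. The gap was -0.14 at a mean of at least 5 FPKM and -0.24 at a mean of at least 20 FPKM. With Eif2ak3 among the ATF4-type genes it was -0.19, and without members whose position overlaps another row -0.26. Past 1.5-fold there were 2 members and past 1.2-fold 12. Leaving out a library was not possible with 1 value per group. No paired analysis was possible because the table holds 1 value per group and no replicate numbers. Depth limits the low members most, since intervals of Ddit3, Cebpb and Sesn2 rest on under 210 approximate fragments a value.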
